A study of Mus musculus with 8 samples.

Results

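The Ms4a genes encode a family of small proteins that cross the membrane 4 times, and most of them lie side by side in 1 cluster, on chromosome 19 of the mouse. The best known relatives are Ms4a1, which encodes the B cell antigen CD20, and Ms4a2, which encodes the beta chain of the high-affinity IgE receptor. Several other members are made by macrophages and monocytes, and Ms4a7 is used in mouse brain as a marker that sets macrophages of the brain's borders apart from resident microglia. The 7 genes described here are Ms4a4a, Ms4a4b, Ms4a4c, Ms4a6b, Ms4a6c, Ms4a6d and Ms4a7. They were picked by symbol, with the probe set of highest mean over the 8 arrays for each gene, and make up 7 of the 22180 genes that have a probe set. Each of the 7 is named by 1 probe set (17357640, 17357659, 17357648, 17357688, 17357671, 17362973 and 17362953 in the order above), so that choice left no alternative.

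The arrays were hybridised with RNA from medulloblastomas, cerebellar tumours, of mice at postnatal day 15. The 4 Bcl2l1-deleted tumours came from Math1-Cre/SmoM2/Bcl2l1 f/f mice and the 4 control tumours from Math1-Cre/SmoM2 mice, 1 animal per array, and the mice received no agent. All 8 animals thus carried Math1-Cre, which acts in granule neuron precursors, and SmoM2, an activated Smoothened that drives Sonic hedgehog signalling. Macrophages and microglia are not cells in which the Math1 promoter is known to act. The comparison asks how the tumour's transcripts differ once Bcl2l1, which encodes the anti-apoptotic protein BCL-xL, is deleted. All values are log2 RMA expression (background-corrected, normalized probe-set summaries), and differences are Bcl2l1-deleted minus control on that scale.

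As a check of the tissue, all 14 granule neuron tumour markers lay above the dim filter, and Atoh1, a defining transcription factor gene of granule neuron precursors, averaged 11.63 ± 0.18 in Bcl2l1-deleted tumours and 11.17 ± 0.25 in controls (SD, n = 4 each). Bcl2l1 averaged 5.48 ± 0.15 in Bcl2l1-deleted tumours and 6.84 ± 0.19 in controls (SD, n = 4 each), a difference of -1.36 ± 0.16 (SE, limma adjusted p = 0.00509). Control replicate 2 stood apart, with correlations of at most 0.948 to any other array and an interquartile range over genes of 2.40, against 3.29 to 3.66 on the other 7. The median of the olfactory and vomeronasal receptor genes, which are little expressed in brain, was 2.79 to 2.92 over the Bcl2l1-deleted arrays, 3.60 on control replicate 2 and 2.94 to 3.09 on the remaining controls. The 2 groups did not overlap in this receptor median, and results are also given from a fit that holds it as a covariate. The median tested gene was 0.17 higher in Bcl2l1-deleted tumours, so a relative difference below is the difference minus that shift. The shift depends on the genes and arrays used, and was 0.04 with no dim filter and 0.09 without control replicate 2. Array medians over all probe sets went the other way, with 4.765 to 4.875 on Bcl2l1-deleted arrays and 4.896 to 5.169 on controls.

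The RefSeq table of start regions (GRCm38.p6, 250 bases before to 50 after a start) matched 6 of the 7 genes with 7 starts, and did not list Ms4a6d. The regions below show which genes resemble each other outside their coding parts, and where a short myeloid motif falls. Ms4a6b and Ms4a6c, both higher in the Bcl2l1-deleted tumours (below), share an unbroken run of 48 bases, shown in capitals. The regions lie at chr19:11518309-11518608 and chr19:11469118-11469417, plus strand.
Ms4a6b: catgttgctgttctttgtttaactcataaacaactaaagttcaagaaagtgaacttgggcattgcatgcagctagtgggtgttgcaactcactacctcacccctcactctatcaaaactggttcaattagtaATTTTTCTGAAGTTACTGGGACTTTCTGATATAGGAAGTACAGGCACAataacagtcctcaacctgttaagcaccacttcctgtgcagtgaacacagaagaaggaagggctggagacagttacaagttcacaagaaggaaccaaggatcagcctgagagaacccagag
Ms4a6c: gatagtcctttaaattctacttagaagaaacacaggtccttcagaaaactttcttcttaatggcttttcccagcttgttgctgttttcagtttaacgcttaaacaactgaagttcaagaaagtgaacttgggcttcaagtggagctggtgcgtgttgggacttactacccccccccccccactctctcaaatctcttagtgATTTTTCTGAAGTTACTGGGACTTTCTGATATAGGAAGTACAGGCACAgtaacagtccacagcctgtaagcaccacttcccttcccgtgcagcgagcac

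The other pair with clear likeness was Ms4a4b and Ms4a4c, the genes without a higher signal in Bcl2l1-deleted tumours. They were identical at 230 of 319 aligned positions (72.1%), against 192 of 375 (51.2%) for Ms4a6b and Ms4a6c. The 48-base run begins at position -118 of Ms4a6b and -49 of Ms4a6c. Their windows are thus offset, and gaps from that offset count against the 51.2%. The 19 other pairs of starts reached at most 50.7%, with shared runs of at most 9 bases. For the myeloid factor PU.1 only the letters GAGGAA were searched, on both strands, and other forms of its motif were not. GAGGAA was found in the regions of Ms4a4b (positions -64 to -59, the start being 0), Ms4a4c (-61 to -56) and the first start of Ms4a7 (43 to 48). These are shown with the motif in capitals and lie at chr19:11443308-11443607 and chr19:11407411-11407710 (plus strand) and chr19:11336097-11336396 (minus strand).
Ms4a4b: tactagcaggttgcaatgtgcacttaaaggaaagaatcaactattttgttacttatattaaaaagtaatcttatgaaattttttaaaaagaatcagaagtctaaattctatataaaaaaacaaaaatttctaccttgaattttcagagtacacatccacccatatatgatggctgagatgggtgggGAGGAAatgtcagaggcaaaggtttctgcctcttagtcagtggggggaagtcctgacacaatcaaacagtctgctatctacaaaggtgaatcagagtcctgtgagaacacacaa
Ms4a4c: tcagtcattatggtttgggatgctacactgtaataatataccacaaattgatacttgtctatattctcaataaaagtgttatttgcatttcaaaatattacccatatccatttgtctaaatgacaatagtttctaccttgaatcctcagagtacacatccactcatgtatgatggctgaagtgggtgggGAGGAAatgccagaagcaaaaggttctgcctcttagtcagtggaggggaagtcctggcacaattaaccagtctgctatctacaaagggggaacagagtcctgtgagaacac
Ms4a7: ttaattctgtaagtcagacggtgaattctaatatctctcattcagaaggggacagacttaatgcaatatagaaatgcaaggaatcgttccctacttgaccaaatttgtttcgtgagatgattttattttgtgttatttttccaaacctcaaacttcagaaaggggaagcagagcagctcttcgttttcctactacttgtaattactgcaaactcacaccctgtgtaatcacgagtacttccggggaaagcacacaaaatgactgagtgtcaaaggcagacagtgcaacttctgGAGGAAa

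Thus 3 of 7 regions held GAGGAA, against 28.3% of the 32851 regions in the table. The motif was found for Ms4a4b and Ms4a4c, without a rise, and for Ms4a7, which had the largest rise. It was not among the letters of the regions of Ms4a4a, Ms4a6b and Ms4a6c. The matches of Ms4a4b and Ms4a4c lie in regions that resemble each other. Whether the motif bears on the differences was not tested. TGANTCA, the AP-1 motif, was found in 2 of the 7 regions (7.81% of all), TATAAA, the TATA motif, in 1 (13.6%), and CCAAT in 1 (37.4%). The C/EBP motif TTGCNNAA (10.8% of all) and the IRF motif (3.44%) were in none of the 7 windows. All were searched on both strands, and no match overlapped another motif's match. The regions held 0 to 6 CG pairs each with a median of 1, against a median of 7 over all regions. Of all regions 47.9% had at most 6.

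Among the 7 genes, Ms4a7, Ms4a4a, Ms4a6b, Ms4a6c and Ms4a6d were higher in every Bcl2l1-deleted tumour than in every control, by 0.84 to 2.00 log2 units (1.79-fold to 4.01-fold). Ms4a4b and Ms4a4c were dim, and their groups overlapped. In the limma fit over 15526 genes, adjusted over all of them by Benjamini-Hochberg, the 5 genes above the dim filter passed an adjusted p of 0.05 as higher. Of all tested genes 4.93% passed as higher (765), and 248 passed as lower. The groups did not overlap for 23.4% of tested genes in either direction, with 2944 of the 15526 higher on every Bcl2l1-deleted array. Ms4a4b and Ms4a4c, with means of 3.02 and 4.29 over the 8 arrays, lay below the dim filter at 4.38 and were not tested in this fit. The filter takes the mean over both groups, and Ms4a6d, with a control mean of 4.36, cleared it only through its Bcl2l1-deleted values. With no dim filter all 7 genes were tested and the same 5 passed, where 389 of 22180 genes passed as higher. The lowest tested member, Ms4a6b, had a mean of 5.27. The genes were put together with results of this comparison already known, so the count and p-values place them among all genes and are no independent evidence of a direction. More cells of a type and more RNA per cell cannot be told apart in such bulk samples.

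**Figure D1:**
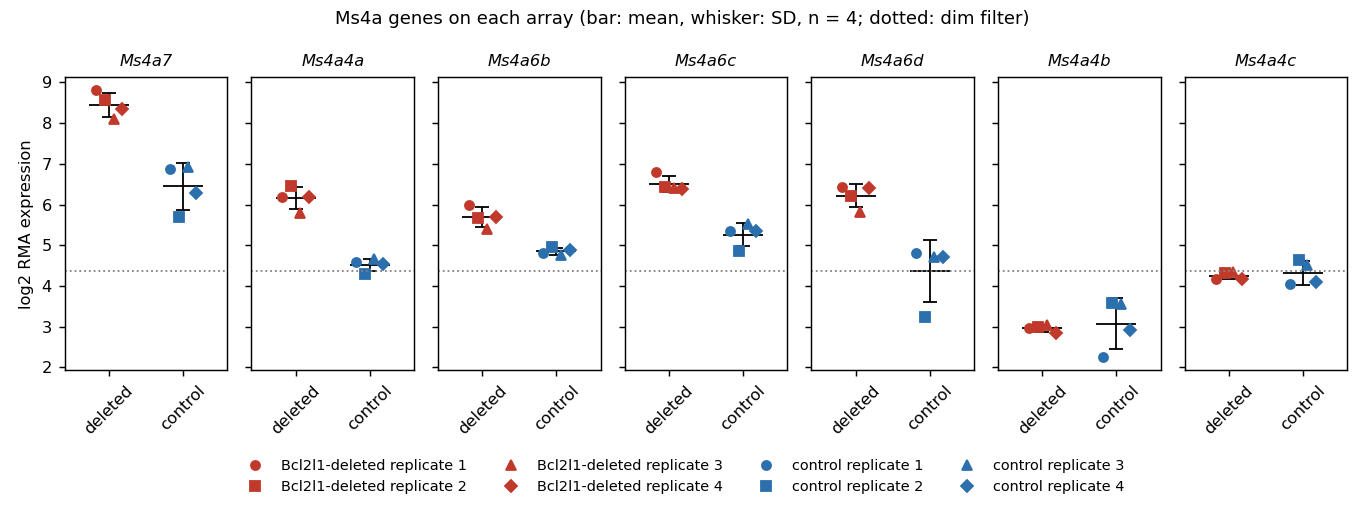
Log2 RMA expression of the 7 Ms4a genes, 1 point per array, in Bcl2l1-deleted (red, left) and control (blue, right) tumours, with mean and SD (n = 4) and the dim filter at 4.38 as a dotted line. The groups separate for Ms4a7, Ms4a4a, Ms4a6b, Ms4a6c and Ms4a6d and overlap for Ms4a4b and Ms4a4c, and control replicate 2 is the lowest point for Ms4a6d at 3.23.

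Ms4a7, the border macrophage marker, had values of 8.80, 8.56, 8.10 and 8.34 on Bcl2l1-deleted replicates 1 to 4, against 6.88, 5.69, 6.93 and 6.29 on control replicates 1 to 4. The lowest Bcl2l1-deleted tumour stood more than 1 log2 unit above the highest control. Ms4a7 rose by 2.00 ± 0.27 (SE, 1.83 relative, 4.01-fold, adjusted p = 0.00998). The rise was 1.75 without control replicate 2 (adjusted p = 0.00443) and 1.53 with the receptor covariate (adjusted p = 0.0169). Without Bcl2l1-deleted replicate 1, its highest tumour, the difference was 1.89 and did not pass (adjusted p = 0.0574). In that fit only 16 of all tested genes passed as higher, against 765 with all 8 arrays.

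Ms4a4a encodes a surface protein of macrophages that, in human and mouse cells, associates with the beta-glucan receptor dectin-1. It measured 6.19, 6.46, 5.80 and 6.18 on Bcl2l1-deleted replicates 1 to 4, against 4.58, 4.30, 4.66 and 4.54 on control replicates 1 to 4. All controls lay within 0.4 of one another and close to the dim filter. Ms4a4a rose by 1.64 ± 0.17 (SE, 1.46 relative, 3.11-fold, adjusted p = 0.00509), and it was second of all tested genes in the order of p-values. It was the 1 member that passed whichever array was left out (adjusted p = 0.00347 to 0.0351).

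The Ms4a6 genes are expressed by monocytes and macrophages, and Ms4a6b also by T cells. Ms4a6d measured 6.44, 6.21, 5.82 and 6.41 on Bcl2l1-deleted replicates 1 to 4, against 4.81, 3.23, 4.71 and 4.71 on control replicates 1 to 4. Control replicate 2 was thus far below the other controls, which lay within about 0.1 of one another. Ms4a6d rose by 1.86 ± 0.33 (SE, 1.68 relative, 3.62-fold, adjusted p = 0.0168). The rise was 1.48 ± 0.16 without control replicate 2 (SE, adjusted p = 0.00381) and 1.21 with the receptor covariate (adjusted p = 0.0274), over 1.5 times smaller. It did not pass when Bcl2l1-deleted replicate 1 or 2 was left out (adjusted p = 0.0741 and 0.0631).

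Ms4a6c measured 6.79, 6.42, 6.39 and 6.39 on Bcl2l1-deleted replicates 1 to 4, against 5.34, 4.85, 5.52 and 5.34 on control replicates 1 to 4. Bcl2l1-deleted replicate 1 was the highest and control replicate 2 the lowest array. Ms4a6c rose by 1.24 ± 0.18 (SE, 1.06 relative, 2.36-fold, adjusted p = 0.0120). It did not pass when Bcl2l1-deleted replicate 1 or 2 was left out (adjusted p = 0.0639 and 0.0504). Ms4a6b measured 6.0003, 5.66, 5.40 and 5.69 on Bcl2l1-deleted replicates 1 to 4, against 4.80, 4.96, 4.76 and 4.87 on control replicates 1 to 4. Here control replicate 2 was the highest control, unlike for the other tested members. Ms4a6b rose by 0.84 ± 0.16 (SE, 0.67 relative, 1.79-fold, adjusted p = 0.0211), the smallest rise of the 5. It did not pass when Bcl2l1-deleted replicate 1, 2 or 4 or control replicate 4 was left out (adjusted p = 0.0881, 0.0785, 0.0569 and 0.0618), or with arrays centred on the genes tested (difference 0.58, adjusted p = 0.0961). Probe sequences were not used here, so how far probes of these related genes also bind each other's transcripts was not tested.

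Ms4a4b is known from T cells, and Ms4a4c from monocytes and other leukocytes exposed to interferon. Ms4a4b measured 2.97, 2.99, 3.05 and 2.85 on Bcl2l1-deleted replicates 1 to 4, against 2.26, 3.58, 3.55 and 2.91 on control replicates 1 to 4. The Bcl2l1-deleted values lay inside the span of the controls. Ms4a4c measured 4.18, 4.32, 4.35 and 4.18 on Bcl2l1-deleted replicates 1 to 4, against 4.05, 4.64, 4.52 and 4.11 on control replicates 1 to 4. The differences were -0.11 and -0.07, and neither passed when the dim filter was dropped (adjusted p = 0.819 and 0.805). Both genes had their highest value on control replicate 2, the array with the highest receptor median.

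After each group's mean was taken off, Ms4a7 correlated with Ms4a6c at 0.882, with Ms4a6d at 0.856 and with Ms4a4a at 0.686 over the 8 arrays. Ms4a6b correlated with Ms4a7 at 0.106 and with Ms4a6d at 0.0237 on the same measure. The low values for Ms4a6b pool groups that ran opposite ways: among Bcl2l1-deleted tumours Ms4a6b and Ms4a7 were both highest on replicate 1 and lowest on replicate 3, while among controls Ms4a6b was highest on replicate 2, where Ms4a7 was lowest. No test of a difference between the pairs was made. These correlations describe 8 arrays that share the scaling of the table, and control replicate 2 was the lowest control for 4 of the 5 genes and the highest for Ms4a6b. The mean of the 5 genes was 6.84, 6.67, 6.30 and 6.60 on Bcl2l1-deleted replicates 1 to 4, against 5.28, 4.61, 5.32 and 5.15 on control replicates 1 to 4.

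**Figure D2:**
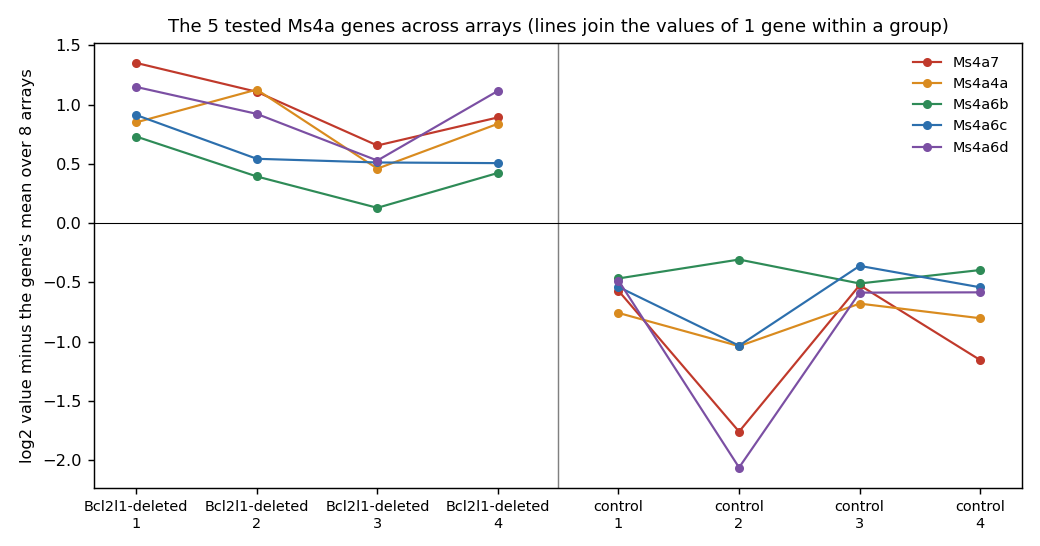
Log2 value minus the gene's mean over 8 arrays (y axis) on each array (x axis), for the 5 tested Ms4a genes, with Bcl2l1-deleted arrays left of the vertical line and controls right of it. All 5 genes are above 0 on each Bcl2l1-deleted array and below 0 on each control, and on control replicate 2 Ms4a6d and Ms4a7 drop while Ms4a6b does not.

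Along chromosome 19 the cluster holds 21 Ms4a genes in the RefSeq order, of which 20 were measured (all but Ms4a12). The higher genes were not 1 unbroken block. Ms4a14, Ms4a7 and Ms4a4a follow each other and were all higher, then come Ms4a4c and Ms4a4b without a rise, then Ms4a6c and Ms4a6b, then Ms4a4d without a rise and last Ms4a6d, with genes that were dim or not measured in between. Ms4a14, which is not among the 7 genes, measured 5.86, 5.94, 5.63 and 5.41 on Bcl2l1-deleted replicates 1 to 4, against 4.31, 4.53, 4.81 and 4.35 on control replicates 1 to 4. The groups did not overlap, and control replicate 2 was not extreme. Ms4a14 rose by 1.21 ± 0.18 (SE, 1.04 relative, 2.31-fold, adjusted p = 0.0120), but did not pass when Bcl2l1-deleted replicate 1 or 2 was left out (adjusted p = 0.0639 and 0.0551).

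Ms4a4d, which lies between Ms4a6b and Ms4a6d, was tested and averaged 4.82 ± 0.17 in Bcl2l1-deleted tumours and 5.18 ± 0.30 in controls (SD, n = 4 each). Its difference of -0.36 ± 0.18 did not pass (SE, adjusted p = 0.202). The 11 other measured Ms4a genes, Ms4a1 and Ms4a2 among them, were below the dim filter. Their group means lay between 2.15 and 4.61, and their differences between -0.47 and 0.12 with a median of -0.23, and none had groups that did not overlap. Of these 11 genes, 8 had their highest control value on replicate 2. On the flank next to Ms4a10, Ccdc86 differed by 0.53 ± 0.16 and did not pass (SE, adjusted p = 0.0630), while Zp1 was dim, and on the flank next to Ms4a3 Oosp2, Oosp1 and Oosp3 were dim.

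**Figure D3:**
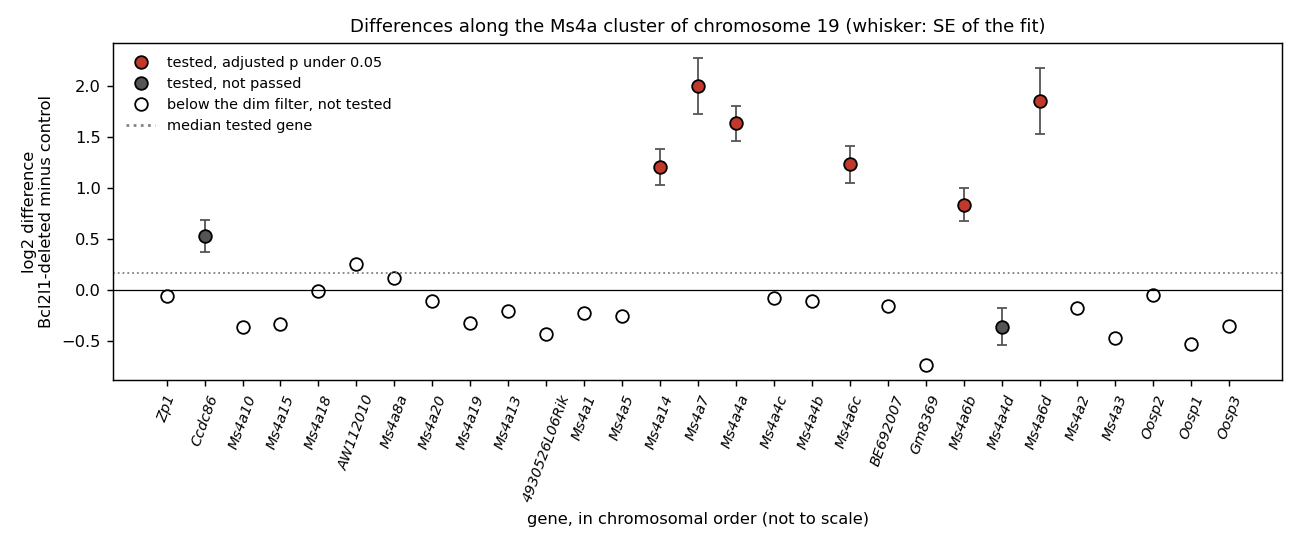
Log2 difference, Bcl2l1-deleted minus control (y axis), of the measured genes of the Ms4a cluster and its flanks in chromosomal order (x axis, not to scale), with the SE of the fit for tested genes. Red points are the 6 genes that passed (Ms4a14, Ms4a7, Ms4a4a, Ms4a6c, Ms4a6b and Ms4a6d), grey points were tested and did not pass, and open points lay below the dim filter.

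The distant relatives Tmem176a and Tmem176b lie outside the cluster. Tmem176a measured 8.61, 8.38, 8.51 and 8.40 on Bcl2l1-deleted replicates 1 to 4, against 7.99, 6.38, 7.82 and 6.58 on control replicates 1 to 4. It passed with a rise of 1.28 ± 0.34 (SE, adjusted p = 0.0478), but lost the call without control replicate 2 (0.0502), without control replicate 4 (0.119), when any of the 4 Bcl2l1-deleted arrays was left out (0.143, 0.124, 0.0923 and 0.0979 for replicates 1 to 4) and with the receptor covariate (adjusted p = 0.216). It also did not pass with no dim filter, with quantile normalization or with arrays centred on the genes tested (adjusted p = 0.0654, 0.0526 and 0.0590). Tmem176b differed by 0.37 ± 0.15 and did not pass (SE, adjusted p = 0.130). Over the 18 superfamily genes outside the 7, 15 were measured, 4 tested and 2 passed, both as higher.

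Of 10 genes whose proteins are known to act with an Ms4a protein or its signalling, 6 were tested and 2 rose, with a median of 0.90. Fcer1g, the shared signalling chain of Fc receptors, rose by 1.33 ± 0.32 (SE, adjusted p = 0.0392), and Trem2, the microglial lipid receptor whose soluble form is tied to human MS4A genes, by 1.12 ± 0.29 (SE, adjusted p = 0.0468). Clec7a, which encodes dectin-1, varied widely within the groups and differed by 0.89 ± 0.53 (SE, adjusted p = 0.266). Tnfrsf18, the receptor GITR known to associate with Ms4a4b in T cells, differed by -0.10 (adjusted p = 0.644). Vsig4, reported as a partner of Ms4a6d, was dim, with 2.61 ± 0.06 in Bcl2l1-deleted tumours and 2.95 ± 0.32 in controls (SD, n = 4 each). Of the 9 measured genes of the list 4 were without overlap as higher and 1, Vsig4, as lower. Among all tested genes 23.4% were without overlap in either direction, a share that leaves out dim genes such as Vsig4. Neither Fcer1g nor Trem2 passed with the receptor covariate (adjusted p = 0.162 and 0.196) or with no dim filter (0.0551 and 0.0646), and Trem2 did not with arrays centred on the genes tested (0.0556). Likewise 0 of the list passed without any 1 of Bcl2l1-deleted replicates 1 to 4 or without control replicate 4. In those fits 16, 25, 252, 181 and 118 of all tested genes passed as higher.

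Among 10 tested myeloid transcription factor genes, 4 rose, none fell and 6 did not pass, with a median of 0.71. Spi1, which encodes PU.1, averaged 6.43 ± 0.17 in Bcl2l1-deleted tumours and 5.55 ± 0.19 in controls (SD, n = 4 each), a rise of 0.88 ± 0.16 (SE, adjusted p = 0.0174). Irf8, needed for microglia and monocyte development, rose by 0.94 ± 0.16 (SE, adjusted p = 0.0140), Runx1 by 0.78 ± 0.16 (SE, adjusted p = 0.0238) and Tfec, a macrophage relative of Mitf, by 1.15 ± 0.17 (SE, adjusted p = 0.0121). The count was 4 with the receptor covariate and 3 after centring on the genes tested, where Runx1 did not pass (adjusted p = 0.0731). It was 0, 1, 3 and 3 when Bcl2l1-deleted replicate 1, 2, 3 or 4 was left out, and 5, 5, 5 and 3 when control replicate 1, 2, 3 or 4 was. Over all tested genes the matching numbers called higher were 16, 25, 252 and 181, and 1610, 1389, 357 and 118.

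Markers of cells that can carry Ms4a transcripts were set beside the family. Of 10 tested border macrophage markers other than Ms4a7, 3 rose, none fell and 7 did not pass, with a median of 0.59. They were the mannose receptor gene Mrc1 (1.42 ± 0.22, SE, adjusted p = 0.0140), the lectin gene Clec12a (1.39 ± 0.25, SE, adjusted p = 0.0190) and the scavenger receptor gene Stab1 (1.12 ± 0.17, SE, adjusted p = 0.0120). Lyve1, Cd163 and F13a1, also markers of these cells, differed by 0.66, -0.05 and 0.37 (adjusted p = 0.146, 0.890 and 0.246). The mean over all 11 measured markers was 5.84 to 6.26 on Bcl2l1-deleted arrays and 5.30 to 5.70 on controls. The count was 3 without control replicate 2 and also with the receptor covariate, but 0 without Bcl2l1-deleted replicate 1 or 2 and 2 without control replicate 4. Of all tested genes 16, 25 and 118 passed as higher without Bcl2l1-deleted replicate 1 or 2 or control replicate 4.

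Of 11 tested homeostatic microglia markers, 4 rose, none fell and 7 did not pass, with a median of 0.76. They were the growth factor receptor gene Csf1r (1.33 ± 0.32, SE, adjusted p = 0.0384), Fcrls (1.18 ± 0.28, SE, adjusted p = 0.0371), the purinergic receptor gene P2ry13 (1.17 ± 0.26, SE, adjusted p = 0.0314) and Gpr34 (0.87 ± 0.22, SE, adjusted p = 0.0415). P2ry12 and Tmem119 differed by 1.12 and 0.45 (adjusted p = 0.0679 and 0.144). Only Siglech and Slc2a5 of the tested list had negative differences, -0.31 and -0.03 (adjusted p = 0.270 and 0.934). The list mean was 6.63 to 6.89 on Bcl2l1-deleted arrays and 5.63 to 6.51 on controls, lowest on control replicate 2. None of the list passed with the receptor covariate, where all 5 tested Ms4a genes passed and 1.76% of all genes were higher. Leaving out any 1 of Bcl2l1-deleted replicates 1 to 4 or control replicate 4 also left 0, control replicate 3 left 1 and control replicate 1 left 6. In those fits 16, 25, 252, 181, 118, 357 and 1610 of all tested genes passed as higher, in that order. With no dim filter 1 of the list passed, since Csf1r, Fcrls and Gpr34 did not (adjusted p = 0.0544, 0.0525 and 0.0592), and Gpr34 also did not with arrays centred on the genes tested (0.0849).

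No T, NK, monocyte or neutrophil marker passed, while 2 of 6 tested B cell markers rose. Of 9 measured T and NK cell markers 4 were tested and 0 passed in limma, also at an unadjusted p of 0.05 (lowest adjusted p 0.226, for Thy1, which neurons also express), and Cd3d, Cd3e, Cd3g and Cd2 lay below the dim filter. That list's mean was 4.41 to 4.74 on Bcl2l1-deleted arrays and 4.72 to 5.31 on controls. Of 11 monocyte and neutrophil markers 4 were tested and 0 passed in limma (1 at an unadjusted p of 0.05), and Ccr2, Ly6c2 and S100a8 were dim. Among 6 tested B cell markers Ighm (1.54 ± 0.27, SE, adjusted p = 0.0161) and Cd22 (0.71 ± 0.15, SE, adjusted p = 0.0281) rose. Cd79a and Pax5 differed by 0.11 and 0.14 (adjusted p = 0.710 and 0.553), and the CD20 gene Ms4a1 was dim. Cd79b differed by 0.79 and did not pass (adjusted p = 0.109), though its groups did not overlap. Ighm did not pass when Bcl2l1-deleted replicate 1 or 2 or control replicate 4 was left out (adjusted p = 0.0741, 0.0558 and 0.0525) or with the mean over its probe sets (adjusted p = 0.828). Cd22 did not pass when any 1 Bcl2l1-deleted array or control replicate 4 was left out (adjusted p = 0.0632 to 0.105) or with arrays centred on the genes tested (0.168). Of 5 tested dendritic and mast cell markers 0 passed in limma (3 at an unadjusted p of 0.05, all lower), and of 14 granule neuron tumour markers 0 passed (1 at an unadjusted p of 0.05). By their lowest-mean probe sets Ighm and, of the transcription factor genes, Irf8 lay below the dim filter of that setting, which left 1 B cell marker and 3 transcription factor genes that passed. The part of each cell type in the Ms4a values was not tested.

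**Figure D4:**
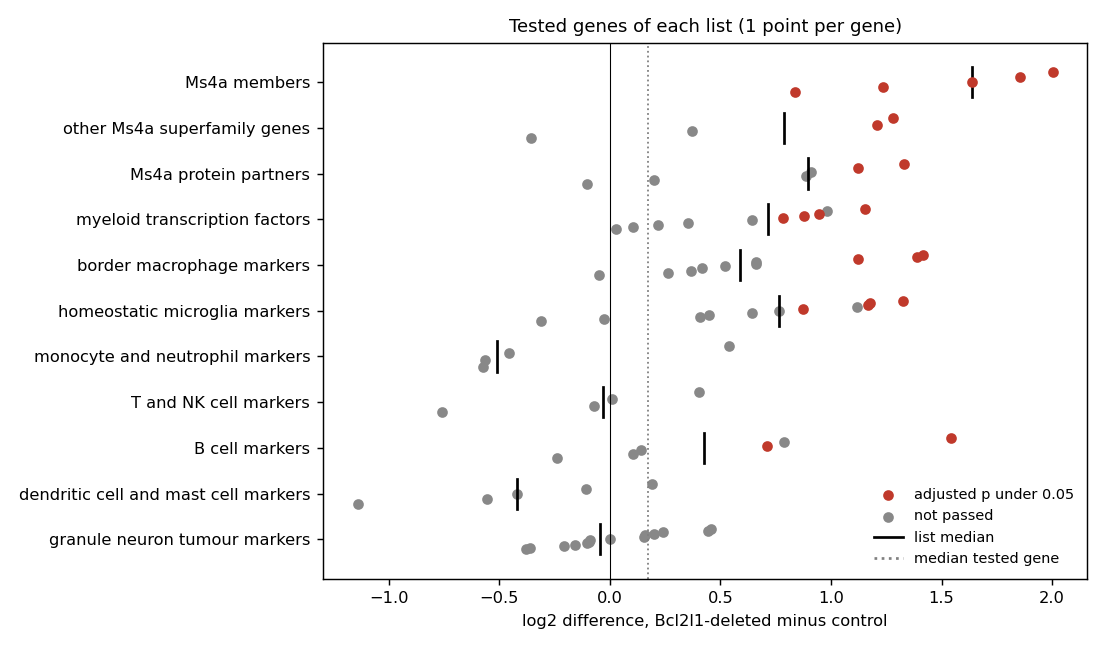
Log2 difference, Bcl2l1-deleted minus control (x axis), of each tested gene in the Ms4a group and in 10 other lists (y axis), with red points past an adjusted p of 0.05, black bars at list medians and a dotted line at the median tested gene (0.17). The 5 tested Ms4a genes lie between 0.84 and 2.00, and the granule neuron tumour markers spread around 0.

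The genes whose pattern over the 8 arrays was most like the mean of the 5 tested members were Mettl16, Myl9, Tec, Tns3, Klf8, Mrc1, Ctsk and Nucb1, with Pearson r from 0.988 to 0.992. Of 14149 named tested genes, 948 reached an r above 0.9 and 222 an r above 0.95, and the difference between the groups contributes to every such r. After the group means were taken off, Tns3, a tensin, was at 0.969, Mrc1 at 0.937 and Mettl16, an RNA methyltransferase, at 0.912. Tec is a kinase of blood cells and Ctsk a cathepsin of osteoclasts and macrophages, and they stood at 0.881 and 0.899 on that measure. Myl9, Klf8 and Nucb1 stood at 0.894, 0.874 and 0.870. How many of all tested genes reach such values after the group means are taken off was not counted. Mettl16 itself differed by 0.33 between the groups and did not pass (adjusted p = 0.121).

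Taken 1 member at a time, the nearest genes differed. For Ms4a7 they were Mrc1 (r = 0.994), Tns3 (0.993) and Slc40a1, the iron exporter ferroportin (0.992). For Ms4a6c they were Lrrk1 (0.994), Gtf2f1 (0.994) and Spi1 (0.990), and for Ms4a6d they were Cdkn2aip, Lyl1 and Nepro (0.991 to 0.994). For Ms4a4a they were Abca8a, Klf8 and Tnf (0.987 to 0.989). For Ms4a6b they were Tsfm, Dnajc9 and Ranbp1 (0.974 to 0.983), with group differences of 0.58, 0.32 and 0.20, and Dnajc9 and Ranbp1 did not pass (adjusted p = 0.135 and 0.308). All are over 8 arrays, and for the genes named for Ms4a7 r was 0.987 to 0.994 without control replicate 2.

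**Figure D5:**
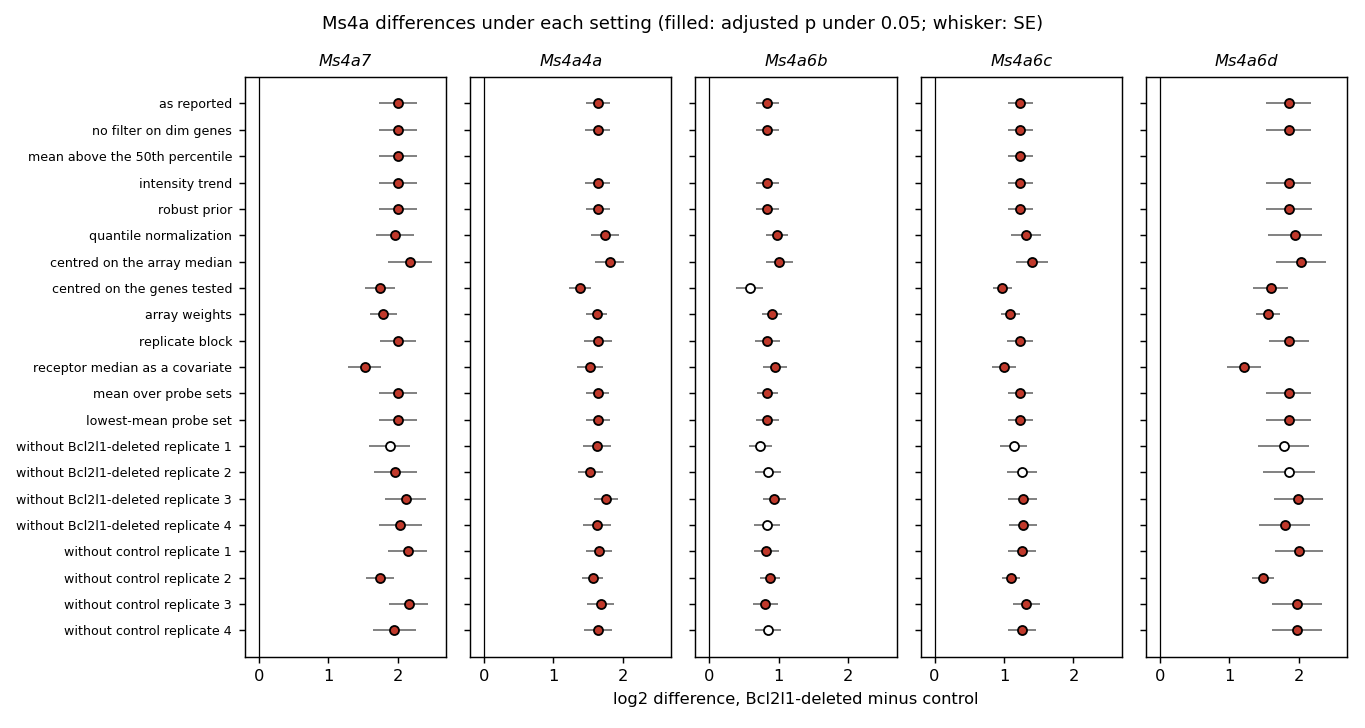
Log2 difference, Bcl2l1-deleted minus control (x axis), of the 5 tested Ms4a genes under each processing setting and with each array left out (y axis), filled where the adjusted p was under 0.05, with the SE as whiskers. Every difference is above 0, and the open points of Ms4a6b, Ms4a6c, Ms4a6d and Ms4a7 are mostly at left-out Bcl2l1-deleted arrays, while Ms4a4a has none.

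Of the 5 tested genes, 1, 2, 5 and 4 passed when Bcl2l1-deleted replicate 1, 2, 3 or 4 was left out, and 5, 5, 5 and 4 when control replicate 1, 2, 3 or 4 was. Without control replicate 2, 8.95% of all genes passed as higher. Over all genes the number called higher lay between 16 and 1610 over the same left-out arrays, around 765. The count of members cannot exceed 5 and they were chosen with results known, so the 2 spreads cannot be compared. Without Bcl2l1-deleted replicate 1, 2, 3 or 4 it was 16, 25, 252 and 181. Without control replicate 1, 2, 3 or 4 it was 1610, 1389, 357 and 118. The split of all calls also followed the scaling, with 765 higher and 248 lower as reported but 390 higher and 699 lower with arrays centred on the genes tested. Under that centring 4 of the 5 genes passed, all but Ms4a6b, where 2.51% of all genes passed as higher.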

How the data were processed

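Expression was measured on 8 Affymetrix whole-transcript arrays, 4 of Bcl2l1-deleted and 4 of control tumours. The deposited values are on the log2 scale and, per the labels, are RMA expression values made by the authors with the Partek gene expression workflow, with its version and options not stated and the genome build not given in the sources used here. They run from 0.682 to 13.2, with array medians of 4.77 to 5.17. RMA compresses differences near background, and the number of arrays limits the precision. Groups came from the titles, which match the genotype field. A status field reads deleted for the controls too and was not used. The labels give no scan date or batch.

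Of 41345 probe sets, 23521 had 1 symbol in the platform annotation, 1814 several and 16010 none. A RefSeq gene table (GRCm38.p6) matched 23328 of them and served for names and gene order. The highest-mean probe set of each gene gave 22180 genes, and 6654 dim genes, whose 8-array mean did not exceed its 30th percentile (4.38), were left out. The 2 groups were compared in R 4.3.3 by limma 3.58.1 (lmFit, eBayes, two-sided, no covariate), with Benjamini-Hochberg adjustment over 15526 genes. Every adjusted p is from this fit unless a setting is named. The fit was tested on simulated data of the Bcl2l1-deleted against control layout with 15526 genes, where 92% of 100 genes with a change of 2 log2 units and 48% of 100 with a change of 1 were recovered, beside 10 false calls. The simulated noise was independent between genes, with no outlying array and no array-wide shift. These rates therefore need not hold for the 8 arrays.

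The members and lists were chosen with earlier results of these data known. Named were the 7 members, Bcl2l1, the Ms4a cluster with the 3 nearest named protein-coding genes on either side, list genes that passed (at most 6 a list) beside well-known markers that did not pass, chosen after their values were seen, and the genes of highest Pearson r to the members (8 to their mean, 3 to each), without predicted genes and microRNAs. A comparison of protein sequences was not made here. Alternatives were a robust prior, an intensity trend, other dim filters, quantile normalization, centring, array weights, a replicate block, the median of 1394 receptor genes as a covariate, other probe set choices, and each array left out.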

Additional observations from a re-analysis of the deposited data

Results flagged for a closer look

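For 12 genes of the family and its surroundings, Bcl2l1 included, the 2 groups of 4 arrays were searched for an array far from the rest, by a gap to its nearest neighbour above Dixon's critical value, as a share of the group's range. Of these 24 groups 2 stood out, where chance gives about 1 in 20. Ms4a6d was 3.23 on control replicate 2, against 4.71 to 4.81 on the other controls, a gap of 0.935 of the range. On Bcl2l1-deleted replicate 1 Ms4a6c was 6.79, where the other Bcl2l1-deleted arrays had 6.39 to 6.42, a gap of 0.910 of the range.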

How the results depend on the processing

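In all 12 settings other than left-out arrays (11 for Ms4a4a, Ms4a6b and Ms4a6d, which the filter at the 50th percentile removes), the differences of Ms4a7, Ms4a4a, Ms4a6c, Ms4a6d and Bcl2l1 kept direction and call, and Ms4a6b lost its call in 1, centring on the genes tested (0.58, adjusted p = 0.0961). Ms4a7 ranged from 1.53 to 2.17, Ms4a4a from 1.38 to 1.81, Ms4a6c from 0.98 to 1.41, Ms4a6d from 1.21 to 2.03, Ms4a6b from 0.58 to 1.01 and Bcl2l1 from -1.61 to -1.18. With single arrays left out, Ms4a7 lay between 1.75 and 2.16, Ms4a4a between 1.53 and 1.76, Ms4a6c between 1.10 and 1.32, Ms4a6d between 1.48 and 2.00, Ms4a6b between 0.73 and 0.93 and Bcl2l1 between -1.45 and -1.30. The cause of the lost calls was not tested. Genes called higher numbered 765, and 389 with no dim filter, 1337 centred on the array median, 390 centred on the genes tested, 2442 with array weights, 358 with the replicate block and 273 with the receptor covariate, and 16 to 1610 with single arrays left out. Genes called lower numbered 248, and 159 with no dim filter, 160 above the 50th percentile, 699 centred on the genes tested, 1052 with array weights, 150 with the replicate block and 404 with the receptor median, and 4 to 693 with single arrays left out. Samples with the same replicate number share only a number (correlations of deviations 0.0393, 0.0226, -0.135 and 0.0526, no Bcl2l1-deleted array correlating best with the control of its own number), and with the replicate block all 5 tested Ms4a genes passed (adjusted p = 0.0212 to 0.0464), while Trem2, Fcrls and Cd22 did not (0.0575, 0.0533 and 0.0584). Values near the dim filter, as for Ms4a4c, Ms4a4b and the controls of Ms4a4a and Ms4a6d, limit what a fold change can show.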

Other observations

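The Ms4a cluster holds further genes without the family's symbol. Gm8369, a protein-coding gene between Ms4a6c and Ms4a6b, averaged 3.44 ± 0.06 in Bcl2l1-deleted tumours and 4.17 ± 0.47 in controls (SD, n = 4 each), below the dim filter in its mean and so not tested, but without overlap and opposite in direction to both neighbours. The noncoding gene AW112010, near Ms4a18, averaged 4.36 ± 0.13 in Bcl2l1-deleted tumours and 4.10 ± 0.16 in controls (SD, n = 4 each) and was dim as well. The noncoding gene 4930526L06Rik averaged 3.27 ± 0.23 in Bcl2l1-deleted tumours and 3.70 ± 0.13 in controls (SD, n = 4 each), also dim and without overlap. These genes were picked out after their values were seen. The share of dim genes without overlap was not counted. Dim signal was mostly lower in Bcl2l1-deleted tumours. The receptor median was 2.79 to 2.92 there and 2.94 to 3.60 in controls. The 11 other dim Ms4a genes differed by -0.47 to 0.12, with a median of -0.23. Whether Gm8369 or 4930526L06Rik differed beyond such an offset was not tested.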
